A study of Homo sapiens with 3 samples.

Results

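The 10 genes described here are the cornification enzymes and barrier lipid genes TGM1, TGM2, TGM3, TGM5, ALOX12B, ALOXE3, ABCA12, CERS3, A2ML1 and CDSN. They were taken from the gene count table by Ensembl identifier, and all 10 were found among its 58037 genes. RNA was sequenced in bulk from RWPE1 cells, an immortalized line from normal human prostate epithelium, with 1 library for each of 3 conditions. The first condition was OLFM4-wild RWPE1 cells. The second was OLFM4-knockout RWPE1 cells, made with CRISPR/Cas9 double nickase plasmids and kept as stable puromycin-selected cells. The third carries the label OLFM4-active, and neither the labels nor the methods say fully what its cells received. Activation plasmids were used in the study to make its OLFM4-wild GFP reporter cells. Whether the library labelled OLFM4-active came from those cells is not stated. OLFM4 encodes olfactomedin-4, a secreted glycoprotein. No condition had a replicate library, so the differences below have no replicate check, no test between conditions was possible, and each interval is a 95% interval that covers counting error only. In bulk RNA, fewer cells of a type and less RNA per cell cannot be told apart.

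Cornification is the last step of keratinocyte differentiation, in which the cell replaces its plasma membrane with a cross-linked protein envelope coated with lipid. Transglutaminases join the envelope proteins to each other, while lipoxygenases and ceramide enzymes prepare the acylceramides that are bound to its outer face. Corneodesmosomes then hold the dead cells together until proteases release them. Basal cells of the prostate epithelium share keratins such as KRT5 and KRT14 with the basal layer of the epidermis.

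The libraries held 16309906 counts for OLFM4-wild, 58837147 for OLFM4-knockout and 23224216 for the library labelled OLFM4-active, so that 3 counts corresponded to 0.165, 0.0584 and 0.126 CPM, counts scaled to library size. Levels are given in CPM after TMM scaling, differences as log2 fold changes of these values, and levels are compared between genes only per kilobase of exon (RPKM). OLFM4 itself had 214 counts (11.8 CPM) in OLFM4-wild, 131 (2.55 CPM) in OLFM4-knockout and 16 (0.670 CPM) in the library labelled OLFM4-active. Its log2 fold change against OLFM4-wild was -2.20 (-2.53 to -1.89) in OLFM4-knockout and -4.10 (-4.97 to -3.40) in the library labelled OLFM4-active. OLFM4 was thus lower in the library labelled OLFM4-active than in OLFM4-knockout, and the name OLFM4-active is used below only as a label. All 4 basal markers (KRT5, KRT14, TP63, ITGA6) were detected, with summed levels of 17819, 39427 and 21290 CPM in OLFM4-wild, OLFM4-knockout and the library labelled OLFM4-active. Of the luminal markers KLK3 (2, 0 and 0 counts), MSMB (0, 1 and 0) and KLK2 (0 in each) were at or near 0. Summed levels lay between 22.9 and 34.1 CPM for 6 fibroblast markers, with COL3A1 and LUM at 0, and between 19.8 and 31.4 CPM for 4 leukocyte markers, with CD3E at 0 and PTPRC at 0, 2 and 0 counts. The 3 endothelial markers summed to at most 0.605 CPM, and both club cell markers were at 0. The sums of the fibroblast, leukocyte and endothelial markers were highest in OLFM4-wild, like most of the barrier genes, but not every marker followed. The fibroblast sum was mostly COL1A1 (30.2, 25.8 and 21.8 CPM in OLFM4-wild, OLFM4-knockout and the library labelled OLFM4-active). COL1A2 was highest in OLFM4-knockout, at 5.22 CPM against 2.75 CPM in OLFM4-wild. The leukocyte sum was mostly CD68 (31.4, 24.4 and 19.8 CPM), while CD79A had 0, 14 and 0 counts. The endothelial sum came from few counts, with 9, 6 and 1 for VWF. The sum of the basal markers was highest in OLFM4-knockout, like TGM1. That sum was mostly KRT5 (12232, 27077 and 13686 CPM) and KRT14 (4006, 9666 and 5542 CPM). TP63 differed least of the 4, at 414, 472 and 450 CPM. According to the methods, the RNA came from a cell line sorted for GFP. The part of cell make-up in the differences below was not tested.

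All 10 genes had counts in every library. In OLFM4-wild all 10 reached 1 CPM, against 9 in OLFM4-knockout and 8 in the library labelled OLFM4-active. Most of them were highest in OLFM4-wild. Against that library, 9 of 10 were lower in OLFM4-knockout, beside 43.3% of the 16600 genes averaging 1 CPM or more over the libraries, and 9 of 10 were lower in the library labelled OLFM4-active, beside 46.1%. TGM1 was the only gene of the 10 that was higher in OLFM4-knockout, by 1.04 on the log2 scale, and ABCA12, whose levels lay closest together, was the only one higher in the library labelled OLFM4-active, by 0.13. All 10 genes averaged at least 1 CPM, TGM3 and TGM5 only just, at 1.01 and 1.09, and these passed through their level in OLFM4-wild.

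The count of genes lower by more than 1 on the log2 scale in OLFM4-knockout was 6 of 10, and 1 of 10 was higher by more than 1. Of the 16600 genes, 7.56% were lower and 5.77% higher by that size. Over all 32894 genes with a count in either library the shares were 24.2% and 10.1%. The median of the 10 genes was -1.27, with a range from -2.83 to 1.04, beside a median of 0.10 over the 16600 genes. In the library labelled OLFM4-active 7 of 10 genes were lower by more than 1 and 0 were higher by that size, beside 6.73% and 3.78% of the 16600 genes, and 22.4% and 14.8% of all 31899 genes with a count in either library. The median of the 10 was -2.32, with a range from -3.02 to 0.13, beside 0.05 over the 16600 genes. All 7 of these were lower by more than 2, a size passed by 1.54% of the 16600 genes. In OLFM4-knockout 4 of 10 were lower by that size, beside 1.44%. Both comparisons use the same single OLFM4-wild library, so its counting error and any other deviation of that library enter both. They are not independent of each other.

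**Figure D1:**
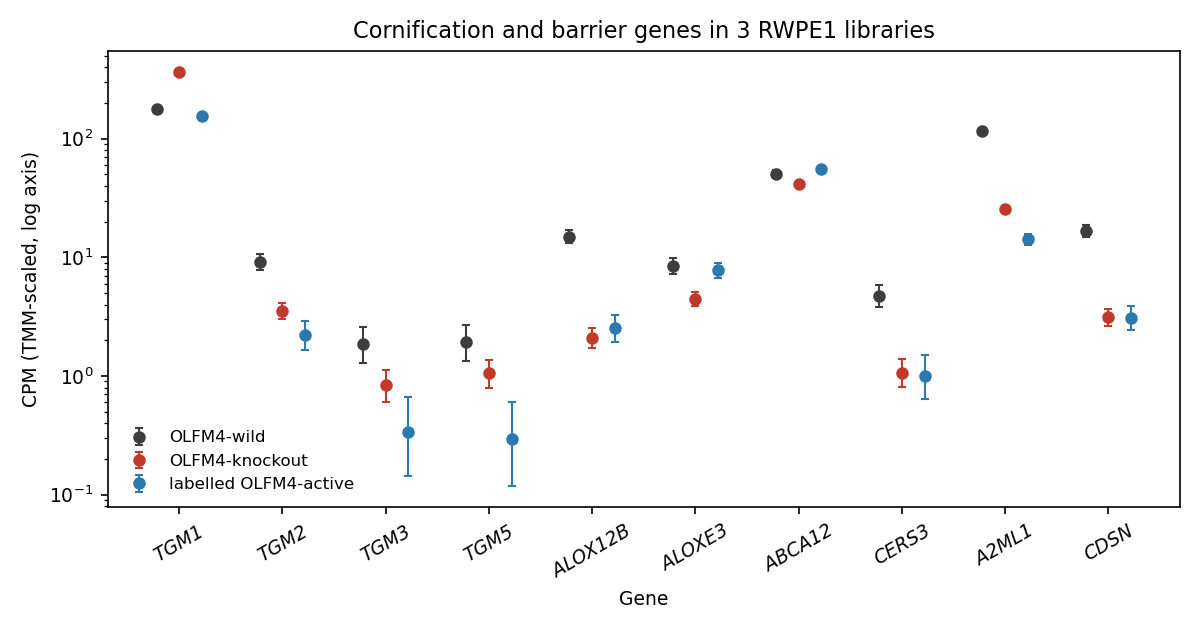
Level of each of the 10 genes in the 3 libraries, in CPM after TMM scaling on a log axis; points are single libraries and bars are 95% counting intervals. TGM1 stands highest in OLFM4-knockout at 363 CPM, and the OLFM4-wild point is the highest of the 3 for all genes except TGM1 and ABCA12.

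The envelope cross-linking enzymes went apart. TGM1 (ENSG00000092295, chr14:24249114-24264432, minus strand), the membrane-anchored keratinocyte transglutaminase whose loss causes lamellar ichthyosis, had 3218, 18649 and 3741 counts in OLFM4-wild, OLFM4-knockout and the library labelled OLFM4-active. These are levels of 177, 363 and 157 CPM. OLFM4-knockout stood alone as high, with a 2.05-fold higher level than OLFM4-wild and a log2 fold change of 1.04 (0.98 to 1.09), and 96.3% of the 12795 protein-coding genes averaging 1 CPM or more had a lower fold change. Scaling by library totals alone gave 0.68, so the direction held and the size of 1 was not reached. In the library labelled OLFM4-active the log2 fold change was -0.18 (-0.25 to -0.11).

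TGM2 (ENSG00000198959, chr20:38127385-38166578, minus strand) encodes the widely expressed tissue transglutaminase, which also binds GTP and is not an enzyme of the skin envelope alone. It had 167, 182 and 53 counts in OLFM4-wild, OLFM4-knockout and the library labelled OLFM4-active, or 9.19, 3.55 and 2.22 CPM. The level was thus highest in OLFM4-wild and 2.59-fold and 4.12-fold lower in the other libraries, with log2 fold changes of -1.37 (-1.69 to -1.06) and -2.04 (-2.52 to -1.60). For every 100 TGM2 counts there were 1927, 10247 and 7058 TGM1 counts in the same order, a ratio within each library that no scaling changes. RPRD1B, a regulator of RNA polymerase II that overlaps TGM2 on the opposite strand, had far more counts than TGM2, with 710 (603 to 840), 1820 (1567 to 2124) and 4004 (3049 to 5363) for every 100 of TGM2. A share of the TGM2 counts from the other strand was not tested.

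TGM3 (ENSG00000125780, chr20:2296001-2341079, plus strand), a transglutaminase of the epidermis and hair follicle that is activated by proteolysis, was near the bottom of the group with 34, 43 and 8 counts, or 1.87, 0.838 and 0.335 CPM. Its log2 fold change was -1.16 (-1.84 to -0.47) in OLFM4-knockout and -2.42 (-3.80 to -1.34) in the library labelled OLFM4-active. TGM5 (ENSG00000104055, chr15:43232590-43266928, minus strand), the transglutaminase whose loss causes acral peeling skin, was as low, with 35, 54 and 7 counts, or 1.93, 1.05 and 0.293 CPM. Its log2 fold change was -0.88 (-1.51 to -0.22) in OLFM4-knockout and -2.64 (-4.13 to -1.52) in the library labelled OLFM4-active. TGM3 is overlapped on its own strand by genes ENSG00000286022 and ENSG00000289955, neither of them analysed here. Wide intervals follow from these few counts, and for TGM5 in OLFM4-knockout a difference of size 1 lies within its interval. The pair stood close to each other in counts within every library: TGM3 had 97.1 (58.8 to 160), 79.6 (52.1 to 121) and 114 (36.2 to 370) counts for every 100 of TGM5.

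Other members of the transglutaminase family were nearly silent. TGM4, the prostate transglutaminase of semen clotting, had 5, 17 and 11 counts in OLFM4-wild, OLFM4-knockout and the library labelled OLFM4-active, and EPB42, an erythrocyte protein of the family without enzyme activity, had 14, 19 and 7. TGM6, TGM7 and F13A1, the blood clotting factor XIII A chain, were listed at 0 in all 3 libraries. TGM7 and EPB42 lie next to TGM5 on chromosome 15, and TGM6 lies next to TGM3 on chromosome 20.

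The paired epidermal lipoxygenases lie next to each other on chromosome 17 and act one after the other on the linoleate of acylceramide. ALOX12B (ENSG00000179477, chr17:8072636-8087716, minus strand), the first of them, had 272, 108 and 61 counts in OLFM4-wild, OLFM4-knockout and the library labelled OLFM4-active, or 15.0, 2.10 and 2.55 CPM. OLFM4-wild was far above both other libraries, which overlapped in their intervals. ALOX12B had the largest difference of the group in OLFM4-knockout, a log2 fold change of -2.83 (-3.17 to -2.50), or 7.10-fold lower, and 0.586% of protein-coding genes lay further down. In the library labelled OLFM4-active it was -2.54 (-2.98 to -2.15), or 5.83-fold lower. ALOXE3 (ENSG00000179148, chr17:8095900-8119047, minus strand), which converts the product of ALOX12B, had 154, 230 and 186 counts, or 8.48, 4.48 and 7.78 CPM. It differed much less, with -0.92 (-1.22 to -0.62) in OLFM4-knockout and -0.12 (-0.44 to 0.19) in the library labelled OLFM4-active, where the interval includes 0.

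Within each library, ALOX12B had 177 (144 to 217) counts for every 100 of ALOXE3 in OLFM4-wild, 47.0 (37.0 to 59.3) in OLFM4-knockout and 32.8 (24.1 to 44) in the library labelled OLFM4-active. The pair thus changed order, ALOX12B having more counts in OLFM4-wild and ALOXE3 more in the others, and the OLFM4-wild interval overlapped neither of the others. Per kilobase ALOX12B stood at 5.45, 0.766 and 0.930 RPKM and ALOXE3 at 2.25, 1.19 and 2.07 RPKM, so the order changed on that scale too. ALOX15B, a lipoxygenase gene of the same cluster, had 78, 150 and 57 counts and log2 fold changes of -0.56 and -0.84 in OLFM4-knockout and the library labelled OLFM4-active. Nearby HES7, a transcriptional repressor, differed by -2.14 and -1.27 and PER1, a clock gene, by -1.46 and -0.29, in that order. Of the other lipoxygenases, ALOX12 of platelets and skin had 23, 40 and 26 counts with a log2 fold change of -0.71 (-1.48 to 0.11) in OLFM4-knockout. ALOX5 had 2, 2 and 8 counts, ALOX15 had 1, 0 and 0, and ALOX5AP, which presents substrate to ALOX5, was listed at 0.

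ABCA12 and CERS3 belong to the lipid supply. ABCA12 (ENSG00000144452, chr2:214931542-215138626, minus strand), the transporter that loads lipid into lamellar granules and is mutated in harlequin ichthyosis, had 922, 2121 and 1328 counts in OLFM4-wild, OLFM4-knockout and the library labelled OLFM4-active. At 50.7, 41.3 and 55.6 CPM its 3 levels were the closest to each other of the group. The log2 fold change was -0.30 (-0.41 to -0.18) in OLFM4-knockout and 0.13 (0.01 to 0.25) in the library labelled OLFM4-active. CERS3 (ENSG00000154227, chr15:100400395-100544995, minus strand), the ceramide synthase that makes ceramides with ultra-long acyl chains, had 86, 55 and 24 counts, or 4.73, 1.07 and 1.0 CPM. OLFM4-wild was above both other libraries, which were close to each other. The log2 fold changes were -2.14 (-2.66 to -1.64) and -2.21 (-2.95 to -1.57), or 4.40-fold and 4.64-fold lower. For every 100 ABCA12 counts there were 9.33 (7.39 to 11.6) of CERS3 in OLFM4-wild, 2.59 (1.95 to 3.39) in OLFM4-knockout and 1.81 (1.15 to 2.70) in the library labelled OLFM4-active.

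The other ceramide synthases, which prefer shorter acyl chains, stood on both sides of 0. CERS2, the synthase for very-long-chain ceramides in most tissues, stood at 75.1, 85.3 and 94.2 CPM in OLFM4-wild, OLFM4-knockout and the library labelled OLFM4-active, and CERS6 at 153, 195 and 218 CPM. Their log2 fold changes in OLFM4-knockout, 0.18 and 0.35, turned to -0.17 and about 0 when scaled by library totals. CERS4 was lower in both, at 15.1, 9.74 and 7.49 CPM, with log2 fold changes of -0.63 (-0.85 to -0.41) and -1.01 (-1.29 to -0.73), and CERS5 stood at -0.09 and 0.25. CERS1, a synthase mostly of neurons and muscle, had 13, 12 and 12 counts in libraries of unequal size, or 0.715, 0.234 and 0.502 CPM, with log2 fold changes of -1.61 (-2.88 to -0.36) and -0.51 (-1.77 to 0.74). No difference from CERS3 was tested. Of the 4 synthases that reached a mean of 1 CPM, 0 were beyond a size of 1 in OLFM4-knockout and 1, CERS4, was lower by that size in the library labelled OLFM4-active.

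A2ML1 (ENSG00000166535, chr12:8822621-8887001, plus strand), a secreted protease inhibitor of the alpha-macroglobulin family made in the upper epidermis, was abundant in OLFM4-wild with 2093 counts and 115 CPM. It had 1324 counts (25.8 CPM) in OLFM4-knockout and 339 (14.2 CPM) in the library labelled OLFM4-active. The 3 libraries were well separated, with log2 fold changes of -2.16 (-2.26 to -2.06) and -3.02 (-3.19 to -2.85), or 4.47-fold and 8.11-fold lower. The latter was the largest difference of the group in the library labelled OLFM4-active, and 0.617% of protein-coding genes lay further down. RIMKLB, the nearer neighbour on the side of lower coordinates, differed by 0.43 and 0.27. MFAP5, a microfibril protein further off on that side, differed by -1.06 and -1.67. On the other side PHC1, a Polycomb protein, differed by -0.03 and 0.46 and M6PR by 0.43 and 0.24.

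CDSN (ENSG00000204539, chr6:31115087-31120446, minus strand) encodes corneodesmosin, the glycoprotein that holds corneodesmosomes together. It had 305, 160 and 74 counts in OLFM4-wild, OLFM4-knockout and the library labelled OLFM4-active, or 16.8, 3.12 and 3.10 CPM. Only OLFM4-wild was high. The log2 fold changes were -2.43 (-2.71 to -2.15) and -2.43 (-2.82 to -2.07). PSORS1C1, on the opposite strand across CDSN, had 392, 232 and 111 counts, or 129 (110 to 150), 145 (118 to 178) and 150 (111 to 204) for every 100 of CDSN. Read pairs were counted by strand, so the pair is distinguishable in principle, and a share of either count from the other strand was not tested. An unnamed gene across ALOX12B on the other strand had 36.4, 61.1 and 55.7 counts for every 100 of ALOX12B. Antisense A2ML1-AS1 had 1.10, 7.40 and 11.2 for every 100 of A2ML1. PSORS1C2, beside CDSN, had 20, 11 and 3 counts, and CCHCR1 next to it differed by 0.34 and -0.29.

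TGM1 dominated the group. It took 44.2% of the counts of the 10 genes in OLFM4-wild, 81.3% in OLFM4-knockout and 64.3% in the library labelled OLFM4-active. The summed level of the 10 was 401, 447 and 244 CPM, so the sum was highest in OLFM4-knockout. Without TGM1 it was 224, 83.3 and 87.1 CPM, highest in OLFM4-wild. A2ML1 had 65.0 (61.5 to 68.7) counts for every 100 of TGM1 in OLFM4-wild, 7.10 (6.71 to 7.51) in OLFM4-knockout and 9.06 (8.08 to 10.1) in the library labelled OLFM4-active, and CDSN had 9.48, 0.858 and 1.98. Every one of these ratios was highest in OLFM4-wild.

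**Figure D2:**
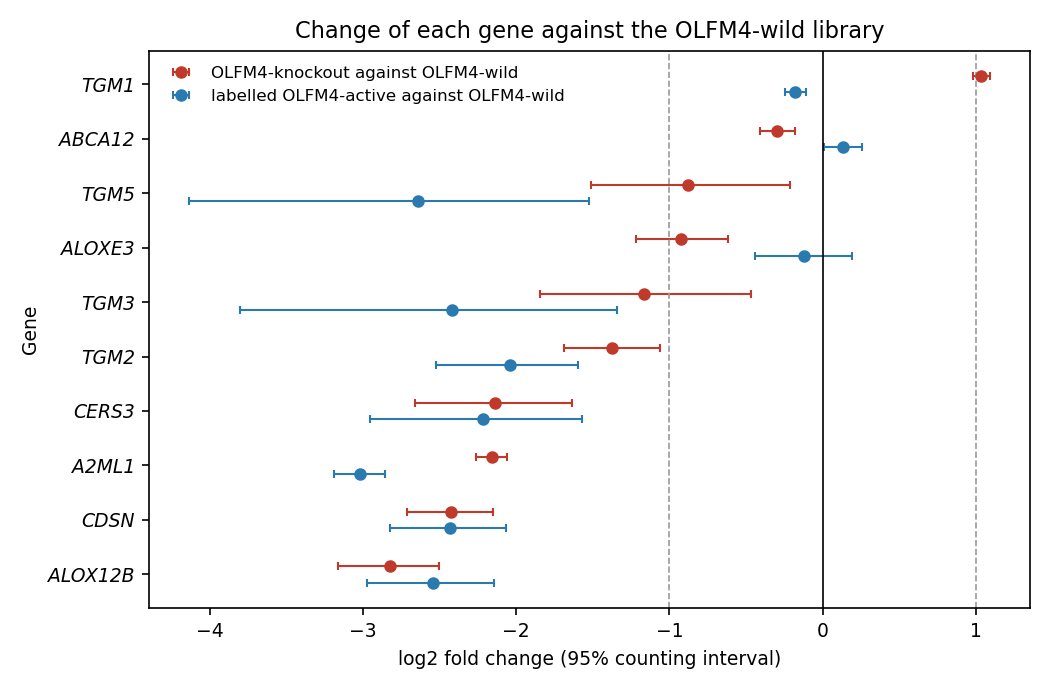
Log2 fold change of each of the 10 genes against OLFM4-wild, in OLFM4-knockout and in the library labelled OLFM4-active, with bars for 95% counting intervals and a line at 0. TGM1 is the only gene above 1, in OLFM4-knockout at 1.04, and A2ML1 is furthest below 0 in the library labelled OLFM4-active at -3.02.

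Per kilobase of exon the order in OLFM4-wild was TGM1 (47.4 RPKM), A2ML1 (16.1), CDSN (6.57), ALOX12B (5.45), ABCA12 (5.28), ALOXE3 (2.25), TGM2 (1.16), CERS3 (0.923), TGM3 (0.695) and TGM5 (0.523). Neighbours from CDSN to ABCA12 and from TGM2 to TGM5 had overlapping intervals, while the remaining steps did not. In OLFM4-knockout TGM1 stood at 97.3 RPKM and ABCA12 was second at 4.30, ahead of A2ML1 at 3.60. In the library labelled OLFM4-active the order began with TGM1 at 41.9, ABCA12 at 5.78 and ALOXE3 at 2.07 RPKM, whose interval overlapped that of A2ML1 at 1.98. ABCA12 thus stood next after TGM1 in both libraries, and below A2ML1 and CDSN in OLFM4-wild.

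OLFM4-knockout and the library labelled OLFM4-active were also set against each other. The log2 fold change of OLFM4-knockout over the other was above 1 for 3 of 10 genes and below -1 for 0, beside 2.95% and 3.39% of the 16600 genes and 12.3% and 18.1% of all 32537 genes with a count in either library. The median of the 10 was 0.37, beside 0.08. TGM1 had the narrowest interval, at 1.21 (1.16 to 1.27). TGM5 at 1.76 (0.70 to 3.23) and TGM3 at 1.25 (0.22 to 2.62) rested on 7 and 8 counts in the lower library. A2ML1 was higher by 0.86 (0.69 to 1.04), TGM2 by 0.67 (0.23 to 1.15), and ALOXE3 was lower at -0.80 (-1.08 to -0.51) as was ABCA12 at -0.43 (-0.53 to -0.33). Intervals of ALOX12B (-0.75 to 0.20), CERS3 (-0.62 to 0.85) and CDSN (-0.40 to 0.43) included 0, which does not show that their levels were equal.

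**Figure D3:**
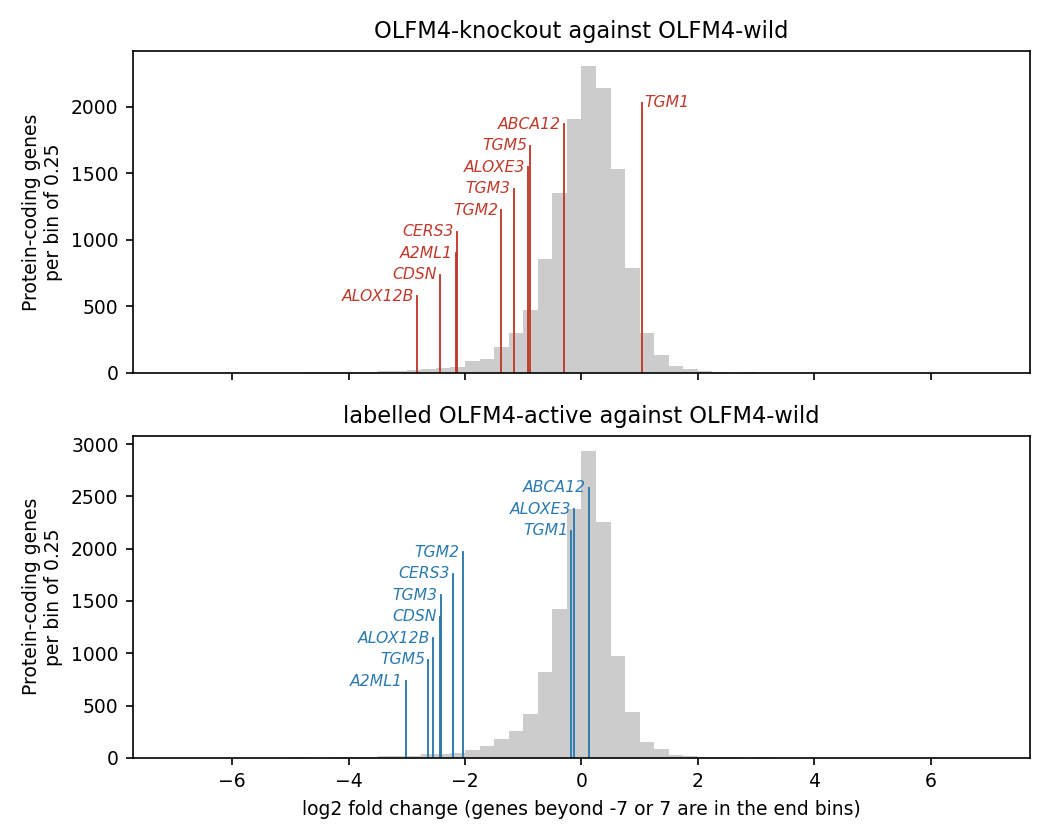
Log2 fold changes against OLFM4-wild of protein-coding genes averaging 1 CPM or more, as histograms of gene numbers for OLFM4-knockout and for the library labelled OLFM4-active, with the 10 genes marked at their values; the height of the marks carries no meaning. The 10 genes have medians of -1.27 and -2.32, beside 0.10 and 0.05 for the protein-coding genes.

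Promoters were examined because most of these genes were low together. The 250 bases before the transcription start are shown for A2ML1, ALOX12B and CDSN, which had large differences in both comparisons, and for ABCA12, which differed least in OLFM4-knockout. Sequences are from RefSeq on GRCh38.p14, written 5′ to 3′ on the gene's strand, and capitals mark matches on either strand to the searched motifs. The letters AACCNGT begin the site of the Grainyhead-like factors, which drive epidermal barrier genes. The letters TGANTCA, with any base at N, were searched as a loose form of the site of AP-1 factors. The TATA box was searched as TATAAA. The GC box, bound by Sp factors, was searched as GGGCGG.
A2ML1 (chr12:8822371-8822620, plus strand): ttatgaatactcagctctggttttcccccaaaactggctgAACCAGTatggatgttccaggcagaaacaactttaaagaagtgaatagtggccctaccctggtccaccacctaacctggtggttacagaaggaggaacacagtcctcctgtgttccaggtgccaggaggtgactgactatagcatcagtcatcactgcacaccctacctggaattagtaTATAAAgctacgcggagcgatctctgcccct
ALOX12B (chr17:8087717-8087966, minus strand): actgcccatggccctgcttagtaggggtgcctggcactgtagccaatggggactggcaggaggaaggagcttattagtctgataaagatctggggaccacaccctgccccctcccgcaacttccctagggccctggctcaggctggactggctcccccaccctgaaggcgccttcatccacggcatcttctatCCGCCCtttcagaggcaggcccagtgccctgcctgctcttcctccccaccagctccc
CDSN (chr6:31120447-31120696, minus strand): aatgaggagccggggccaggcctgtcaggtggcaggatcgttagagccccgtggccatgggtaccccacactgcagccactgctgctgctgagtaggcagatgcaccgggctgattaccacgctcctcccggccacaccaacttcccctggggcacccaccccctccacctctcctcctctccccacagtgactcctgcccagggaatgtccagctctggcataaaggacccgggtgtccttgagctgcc
ABCA12 (chr2:215138627-215138876, minus strand): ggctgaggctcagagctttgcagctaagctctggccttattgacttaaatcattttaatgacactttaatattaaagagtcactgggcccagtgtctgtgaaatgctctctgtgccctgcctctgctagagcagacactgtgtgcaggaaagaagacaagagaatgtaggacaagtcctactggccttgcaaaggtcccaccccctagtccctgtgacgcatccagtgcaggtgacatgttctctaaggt

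Of the 10 genes, 8 had entries in the RefSeq table, 15 in all, and TGM1 and TGM2 were not analysed here. Some genes have several entries, so matches are counted over the 15 entries, as in the table as a whole. AACCNGT was found in 2 of 15 entries, of TGM5 and A2ML1, beside 5.74% of all 35116 entries of the same length. TATAAA was found in 2 of 15, of TGM3 and A2ML1, beside 10.7% of all entries. TGANTCA was found in 1 of 15, of ALOXE3 and there only as TGATTCA, beside 6.57%. GGGCGG was found in 4 of 15, of ALOX12B, ALOXE3 and CERS3, beside 42.6%. The windows of CDSN and ABCA12 held none of these letters. A match describes letters only, and no binding was measured.

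The wider cornification program was described from lists chosen for their function, and was not tested. The counts below stand beside 7.56% lower and 5.77% higher by more than 1 among the 16600 genes in OLFM4-knockout, and 6.73% and 3.78% in the library labelled OLFM4-active. Among envelope proteins that transglutaminases cross-link, 14 of 15 reached a mean of 1 CPM, and 9 were lower and 0 higher by more than 1 in OLFM4-knockout, with a median of -2.0. In the library labelled OLFM4-active 8 were lower and 0 higher, with a median of -1.69. Of the 14, SPRR2A, SPRR3 and CNFN were under 1 CPM in both other libraries and passed only through their level in OLFM4-wild, so these 3 had to be lower. FLG, the filaggrin precursor, had 3475, 304 and 155 counts in OLFM4-wild, OLFM4-knockout and the library labelled OLFM4-active, with log2 fold changes of -5.01 (-5.19 to -4.84) and -4.88. SPRR3, a small proline-rich envelope protein, had 97, 3 and 1 counts, with -6.30 (-8.82 to -4.92) and -6.42 (-12.31 to -4.48). The plakins PPL and EVPL, which begin the envelope at the membrane, were little different in OLFM4-knockout at 0.32 and -0.05, values that became -0.03 and -0.40 when scaled by library totals.

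In the list of acylceramide and lipid envelope genes, 20 of 22 reached 1 CPM, and 3 were lower and 1 higher by more than 1 in OLFM4-knockout, with a median of -0.29. In the library labelled OLFM4-active 2 were lower and 0 higher, with a median of -0.46. These counts are near the shares over the 16600 genes. CYP4F22 (3.19, 0.487 and 0.0837 CPM in OLFM4-wild, OLFM4-knockout and the library labelled OLFM4-active) was under 1 CPM in both other libraries. It passed only through its level in OLFM4-wild, so it had to be lower. SDR9C7 (3.74, 1.66 and 0.335 CPM) was highest in OLFM4-wild and under 1 CPM in the library labelled OLFM4-active. In that library these are the 2 genes counted as lower, and both are among the 3 in OLFM4-knockout. CYP4F22, which hydroxylates ultra-long fatty acids, had 58, 25 and 2 counts, and its log2 fold changes were -2.70 (-3.45 to -2.01) and -4.94 (-8.33 to -3.34). SDR9C7, a dehydrogenase that acts after the lipoxygenases, had 68, 85 and 8 counts, with -1.18 and -3.41 (-4.75 to -2.42). SLC27A4, a fatty acid transport protein, stood higher in OLFM4-knockout at 1.01 (0.88 to 1.15), which became 0.66 when scaled by library totals. ELOVL1, an elongase of saturated acyl chains, stood at 0.47 and 0.13.

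In the list of corneodesmosome proteins and desquamation proteases and inhibitors, 14 of 17 reached 1 CPM. In OLFM4-knockout 7 were lower and 1 higher by more than 1, with a median of -0.99, and in the library labelled OLFM4-active 9 were lower and 0 higher, with a median of -1.39. KLK7, CST6 and ASPRV1, 3 of those lower in both, were highest in OLFM4-wild. CST6 (2.20, 0.409 and 0.628 CPM) and ASPRV1 (3.30, 0.779 and 0.335 CPM) were under 1 CPM in both other libraries. They passed only through their level in OLFM4-wild, so both had to be lower. KLK7 stood at 6.60, 1.01 and 0.837 CPM. DSC1, desmocollin of the upper epidermis, had 517, 70 and 44 counts, with -4.37 and -3.93, and CASP14, the protease that processes filaggrin, had 3430, 1139 and 510, with -3.09 and -3.14. KLK5, the kallikrein protease that cleaves corneodesmosin, was higher in OLFM4-knockout at 1.16 (0.94 to 1.39), or 0.80 when scaled by library totals, and at -0.04 in the other library. CTSV, a cathepsin of keratinocytes, stood at 0.82 and 0.23.

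Of 14 transcription factors of epidermal differentiation, all reached 1 CPM, and 4 were lower and 1 higher by more than 1 in OLFM4-knockout, with a median of -0.22, beside 4 lower and 0 higher in the library labelled OLFM4-active, with a median of -0.53. PRDM1, a repressor needed for the terminal steps, had 129, 60 and 30 counts, with log2 fold changes of -2.60 and -2.48, and GATA3 stood at -2.01 and -1.32. CEBPA was higher in OLFM4-knockout at 1.28 (1.10 to 1.48), or 0.93 when scaled by library totals. TP63, the master factor of stratified epithelium, was near 0 at 0.19 and 0.12, the first becoming -0.16 when scaled by library totals.

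**Figure D4:**
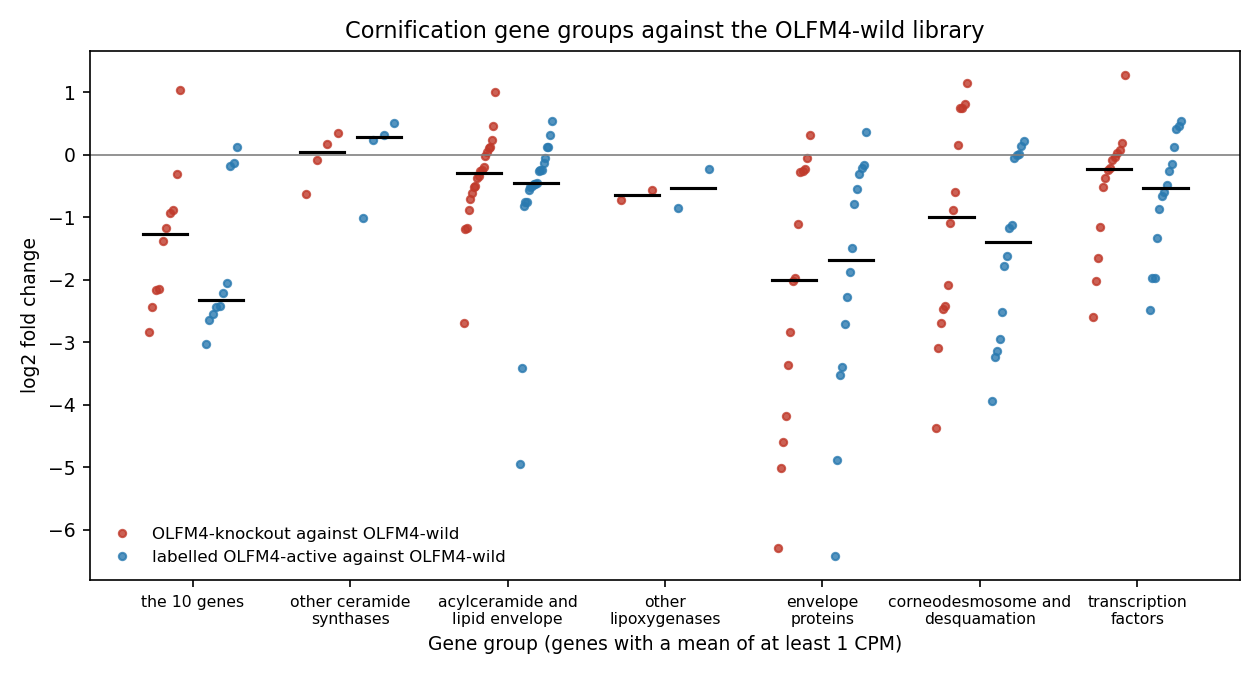
Log2 fold changes against OLFM4-wild of the genes of each functional list averaging 1 CPM or more, in OLFM4-knockout and the library labelled OLFM4-active; points are genes and lines mark each list's median. Outside the 10 genes themselves, envelope proteins have the lowest medians, at -2.0 and -1.69, and ceramide synthases other than CERS3 lie near 0, at 0.05 and 0.29.

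Genes whose pair of fold changes lay nearest to that of a barrier gene, among 9662 protein-coding genes averaging 10 CPM or more, were noted by Euclidean distance. This was done for the 3 members of highest mean CPM. Nearest to TGM1 were MZT2B (distance 0.024), of the mitotic spindle, NDUFA2 (0.066), of respiratory complex I, and KRT6C (0.083), a keratin of activated keratinocytes with 226, 475 and 190 CPM. Nearest to A2ML1 were IFI6 (0.081), IFITM1 (0.18) and GPNMB (0.20), of which IFI6 and IFITM1 are interferon-induced genes. Nearest to ABCA12 were TIMELESS (0.00088), a replication fork protein, CBX1 (0.0016), a heterochromatin protein, and FAM83F (0.0052), in the dense region where many genes lie close to 0. The distance rests on 2 values per gene and on the shared OLFM4-wild library.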

How the data were processed

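RNA of RWPE1 cells was sequenced in 3 libraries, 1 per condition by title, after ribosomal depletion. The deposited table gives counts, whole numbers of read pairs for each gene. According to the methods the authors aligned with HISAT2 to GRCh38 and used featureCounts in its reversely stranded mode on unique alignments. These are not normalized. From these counts, library sizes were scaled with TMM factors (edgeR 4.0.16; 1.11 for OLFM4-wild, 0.872 for OLFM4-knockout and 1.03 for the library labelled OLFM4-active), which match the scaling step of the study's limma workflow, and log2 CPM were taken with an offset of 0.5 counts. RPKM used the summed exon length of GENCODE version 44, from which positions come.

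Intervals are exact Clopper-Pearson intervals at 95%, conditional for fold changes, for counting error only. A single library per condition allows no test between conditions, so genes were counted by size, past 1 or -1 on the log2 scale. The script was tested on simulated data. Members and lists were chosen with earlier results of these data known. Named genes were the 10 members, OLFM4, the 2 largest rises and 2 largest falls of each list in OLFM4-knockout, every gene of a list of 5 or fewer, and the 3 nearest genes of the 3 members of highest mean CPM. Neighbouring and opposite-strand genes were named after their values were seen. The alternatives tried were library totals, DESeq2 1.42.0 size factors, upper quartile factors, leaving out the 10 most abundant genes, other offsets, thinning to the smallest library and filters on low counts. The summed level of the luminal markers is not reported here. Plots used matplotlib 3.10.9.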

Additional observations from a re-analysis of the deposited data

How the results depend on the processing

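No paired analysis was possible because each condition had 1 library and no test was fitted. Scaling by library totals moved all fold changes by -0.35 in OLFM4-knockout and by -0.11 in the library labelled OLFM4-active, both against OLFM4-wild, and by -0.24 between these libraries. The count of members higher by more than 1 in OLFM4-knockout against OLFM4-wild was 1 and became 0 with library totals, upper quartile factors and thinning, since TGM1 ranged from 0.68 to 1.05. The count lower by more than 1 went from 6 to 8 with library totals and to 7 with upper quartile factors and thinning. ALOXE3 passed -1 in each of these settings and ranged from -1.27 to -0.91. TGM5 passed it with library totals only and ranged from -1.23 to -0.41. Between OLFM4-knockout and the library labelled OLFM4-active, the count higher by more than 1 went from 3 to 2 with library totals and with an offset of 5 counts, and the count lower by more than 1 went from 0 to 1, ALOXE3, with library totals and thinning. Of 210 values of single genes, 193 moved by less than their counting interval and 17 by more. A sign changed in 10 of them, all for ALOX12B (-0.28 to 0.24 when thinned), CERS3 (0.08, down to -0.16) and CDSN (0.00, down to -0.23) between these libraries, where the intervals include 0. TGM3 and TGM5, with 7 or 8 counts in the library labelled OLFM4-active, are limited by depth. The cause of these moves was not tested.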
